A study of Homo sapiens with 3 samples.

Results

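A set of 10 genes that are read as an output of RAS-ERK signalling was followed across the series: the phosphatase genes DUSP4, DUSP5 and DUSP6, the Sprouty genes SPRY1, SPRY2 and SPRY4, the Sprouty relatives SPRED1 and SPRED2, and the ETS factors ETV4 and ETV5. They were taken by name, as every probe set whose platform annotation gives 1 of these symbols and no other. That gave 10 of the 19775 genes with a probe set of their own, and 24 of the 54675 probe sets on each array. The 3 samples are lines of HT1080, an established human fibrosarcoma line, with 1 expression array each. Zeo is the mock-transfected line, RECK is a line permanently transfected with RECK in the vector pZeoSV2(+), and RECK/4NQ carries the same vector with a RECK in which glutamine takes the place of the N-glycosylated asparagines at positions 86, 200, 297 and 352. All were grown in DMEM with 10% FCS and 50 µg/mL Zeocin, so all shared the selection drug. Whether a line was grown from 1 clone or from a mixed population is not stated in the labels. The comparisons ask how this transcript set differs in the line transfected with RECK, and whether it does so in the line with the glycosylation-site mutant.

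The RAS-ERK cascade carries signals from growth factor receptors through RAF and MEK kinases to the ERK kinases, which phosphorylate nuclear and cytoplasmic targets. Active ERK raises transcription of its own inhibitors, and the 10 genes belong to this feedback layer or to its readouts. Dual-specificity phosphatases (DUSPs) remove the phosphates that activate ERK, Sproutys and SPREDs act upstream at the level of RAS and RAF, and ETV4 and ETV5 are PEA3-group ETS factors whose transcription follows FGF and ERK signalling. HT1080 is known to carry an activating RAS mutation. RECK is a glycoprotein tethered to the cell membrane that inhibits several matrix metalloproteinases.

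The values are MAS5 signals, linear intensities with 1 value per probe set and array. A floor was set at 12.3, the 40th percentile of all signals, and lower values were raised to it before a ratio was taken. Where a gene had several probe sets, the brightest one stood for it, and the others are described beside it. A call of higher or lower needed floored signals at least 2-fold apart. There were no replicates, so no difference below has a test, a p-value or an SD, and each value compares 1 array with another. As a scale of error, a ratio was set against the robust spread of ratios over the 1000 measured genes closest to it in signal, a spread to which true differences between lines add. Differences that come with a line for reasons other than the transfected gene cannot be told apart from it. In bulk RNA, fewer cells that express a gene and less RNA per cell cannot be told apart either.

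A gene counted as measured when its mean level over the arrays reached the floor, which held for 14282 genes. Their median log2 ratio to Zeo was -0.19 in RECK and -0.12 in RECK/4NQ, and that of RECK to RECK/4NQ was -0.063. Ratios called relative below have this shift subtracted. The brightest probe set of the RECK gene read 264 in Zeo, 387 in RECK and 442 in the RECK/4NQ line, and its other probe sets were at 26.2 or below on every array. It is not known whether these probe sets match the transfected construct, so they do not check the labels. Of 5 mesenchymal markers (VIM, FN1, CD44, S100A4 and LGALS1), all 5 reached the floor on every array, with summed signals of 27079, 28356 and 28729 on the Zeo, RECK and RECK/4NQ arrays. None of 5 epithelial markers reached the floor on every array, and their summed signals ran from 35.2 to 49.0. EPCAM, KRT5 and CLDN4 stayed below the floor on every array. GRHL2 was above it in Zeo and RECK, at 37.1 and 20.3, and CDH1 in RECK/4NQ, at 15.6. Of 4 blood and 5 endothelial markers CD3E and PECAM1 reached the floor on all arrays, with highest signals of 48.7 and 108, and the part of other cells in the results was not tested.

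DUSP5, SPRY4 and ETV4 had lower signals in the RECK line than in the mock line, 4.31-fold, 2.83-fold and 2.67-fold. In the RECK/4NQ line ETV4 and SPRY4 lay within 1.3-fold of mock, while DUSP5 was 2.28-fold lower. No member was at least 2-fold higher by its brightest probe set in any of the 3 comparisons. For RECK over Zeo 3 of 10 members were thus lower, 0 higher and 7 not past 2-fold, where 6.7% of all 19775 genes were lower and 4.03% higher. With each array centred on its median, the same 3 members were lower, beside 4.43% of all genes lower and 5.43% higher. For RECK/4NQ over Zeo 1 of 10 was lower and 0 were higher, beside 7.13% and 2.81% of all genes. For RECK over RECK/4NQ, SPRY4 and ETV4 were lower and 0 higher, beside 4.47% and 5.76% of all genes. The first 2 comparisons share the Zeo array, and each of the 3 shares an array with both others, so they are not separate observations.

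**Figure D1:**
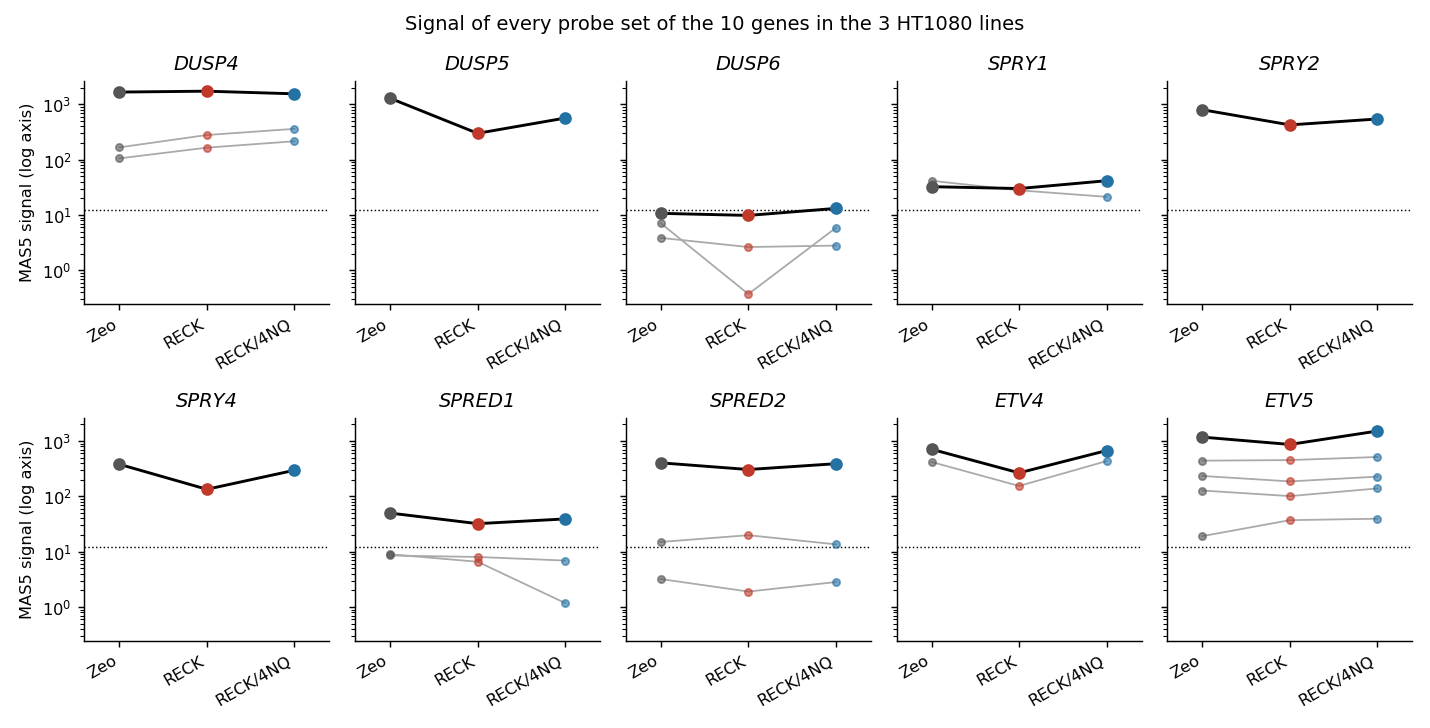
MAS5 signal on a log axis for each of the 24 probe sets of the 10 genes in the Zeo, RECK and RECK/4NQ lines, 1 array each. Black lines join the brightest probe set of a gene, grey lines its others, and the dotted line is the floor of 12.3. DUSP5, SPRY4 and both ETV4 probe sets dip in RECK, and all DUSP6 values lie near or under the floor.

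Among the phosphatases, DUSP5 is a nuclear, inducible phosphatase selective for ERK. Its single probe set, 209457_at, had a signal of 1291 in Zeo, 299.5 in RECK and 565 in the RECK/4NQ line. It was highest in the mock line and lowest in RECK, with RECK/4NQ between them. The relative log2 ratio was -1.91 for RECK over Zeo, 5.01 spreads from the median of all genes, and -1.07 for RECK/4NQ over Zeo, 3.08 spreads from it. RECK was 1.89-fold below RECK/4NQ, which is not past 2-fold and lies 2.07 spreads from the median. The array values hold no second probe set for DUSP5. The 20 measured genes nearest to DUSP5 on its chromosome had a median log2 ratio of -0.33 for RECK over Zeo and -0.10 for RECK/4NQ over Zeo, and DUSP5 lay far below both. With arrays centred on their medians, the log2 ratio of RECK/4NQ over Zeo was -0.94, short of 2-fold.

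DUSP4, a nuclear phosphatase that acts on ERK and other MAP kinases, gave different pictures by probe set. Its brightest, 204015_s_at, read 1668 in Zeo, 1730.5 in RECK and 1551 in the RECK/4NQ line, so the lines differed by less than 1 spread. A second, 226034_at, read 167, 279 and 361 in the same order, and the dimmest, 204014_at, read 106, 165 and 215. On both of these the mock line was lowest and RECK/4NQ highest. For RECK/4NQ over Zeo they were 2.16-fold and 2.04-fold higher, and for RECK over Zeo 1.67-fold and 1.56-fold higher. The brightest is of a class that can match more than 1 transcript, and the other 2 are not. With that class left out, DUSP4 was higher in RECK/4NQ than in Zeo, at a log2 ratio of 1.11. Which probe set follows the main DUSP4 transcript is not given in the sources used here. The direction of RECK/4NQ over Zeo and of RECK over RECK/4NQ thus depends on the probe set read. For RECK over Zeo none of the DUSP4 probe sets was lower, and the brightest was 1.04-fold higher.

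DUSP6, the cytoplasmic ERK phosphatase that is widely used as an ERK readout, was not measured above the floor in Zeo or RECK by any of its 3 probe sets. Its brightest, 208892_s_at, read 10.7 in Zeo, 9.84 in RECK and 13.2 in the RECK/4NQ line. Its others were at 7.10, 0.373 and 5.87 and at 3.86, 2.64 and 2.80. The value of 13.2 is just above the floor, and no fold is given for this gene.

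Among the Sproutys, SPRY4, an inhibitor of receptor-driven RAS activation, had a signal of 381 in Zeo, 134 in RECK and 297 in the RECK/4NQ line by its single probe set, 221489_s_at. The RECK line stood below both others. The relative log2 ratio was -1.31 for RECK over Zeo, at 3.13 spreads from the median, and -0.24 for RECK/4NQ over Zeo, at 0.64 spreads. RECK was 2.21-fold below RECK/4NQ, at 2.47 spreads from the median. The probe set is of a class that can match more than 1 transcript. Genes near SPRY4 had a median log2 ratio of 0.022 for RECK over Zeo, so the neighbourhood was not lower there. For RECK over RECK/4NQ the neighbour median was -0.29, and with it subtracted the SPRY4 log2 ratio of -1.14 came to -0.85, short of 2-fold.

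SPRY2, another inducible Sprouty, had a signal of 800.3 in Zeo, 425 in RECK and 544 in the RECK/4NQ line by its single probe set, 204011_at. The order of the lines was that of DUSP5 and SPRY4, and RECK and RECK/4NQ were 1.88-fold and 1.47-fold below Zeo, neither past 2-fold. Of the 20 measured genes nearest to SPRY2 on its chromosome, the median log2 ratio to Zeo was -0.55 in RECK and -0.58 in the RECK/4NQ line. After subtraction of these medians, the SPRY2 log2 ratio was -0.36 for RECK and 0.021 for RECK/4NQ, so the direction for RECK/4NQ turns with it. Whether neighbouring genes and SPRY2 share a copy number difference was not tested.

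SPRY1 was dim, and its probe sets disagreed. Its brightest, 230212_at, read 32.5 in Zeo, 30.1 in RECK and 41.7 in the RECK/4NQ line. The other, 212558_at, read 41.6, 28.0 and 21.3. RECK/4NQ was thus the highest line on one and the lowest on the other, and no difference was past 2-fold.

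Promoter sequences of 6 of the 10 genes, with 10 start sites, were in the RefSeq-derived table for GRCh38.p14; for DUSP4, DUSP5, ETV4 and ETV5 none is shown. The 250 bases before the first listed start of SPRY4, lower in RECK, SPRY2, lower by less, and SPRED2, close to mock, are printed to set genes with different values side by side. All 3 lie on the minus strand, at chr5:142324248-142324497, chr13:80341127-80341376 and chr2:65432600-65432849. Each runs 5′ to 3′, and capitals mark matches, on either strand, to CCGGAA (the core of an ETS site), TGANTCA (AP-1), TGACGTCA (cyclic AMP response element) or GGGCGG (GC box).
SPRY4: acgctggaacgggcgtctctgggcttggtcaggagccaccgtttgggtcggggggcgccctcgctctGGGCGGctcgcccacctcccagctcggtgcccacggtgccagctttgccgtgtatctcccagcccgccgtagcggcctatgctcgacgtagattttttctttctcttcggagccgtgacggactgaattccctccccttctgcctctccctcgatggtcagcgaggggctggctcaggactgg
SPRY2: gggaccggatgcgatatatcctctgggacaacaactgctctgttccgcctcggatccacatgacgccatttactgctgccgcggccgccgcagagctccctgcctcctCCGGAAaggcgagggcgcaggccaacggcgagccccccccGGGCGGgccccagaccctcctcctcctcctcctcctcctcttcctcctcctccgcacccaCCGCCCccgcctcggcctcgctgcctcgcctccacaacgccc
SPRED2: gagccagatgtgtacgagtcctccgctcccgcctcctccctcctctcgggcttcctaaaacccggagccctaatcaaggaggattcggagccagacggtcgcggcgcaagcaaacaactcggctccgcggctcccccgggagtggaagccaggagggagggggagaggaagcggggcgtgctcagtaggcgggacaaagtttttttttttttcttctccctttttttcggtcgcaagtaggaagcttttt

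SPRY4 held 1 GC box in this window and no match to the other motifs. SPRY2 held 1 match to the ETS core and 2 GC boxes, and SPRED2 held no match. Windows at the other listed starts of SPRY2 and SPRED2 held no match to these motifs, so the SPRY2 matches belong to its first listed start only. Among 35116 promoter windows of this length, 14.5% held the ETS core, 6.57% the AP-1 site, 1.65% the cyclic AMP response element and 42.6% a GC box. None of the printed matches overlap. The printed windows of SPRY4 and SPRY2 are rich in G and C, at 65.6% and 70.4%, where the median of all windows was 58%. That of SPRED2 is close to the median, at 58.8%. The windows of SPRY4, SPRY2 and SPRED2 hold 22, 23 and 19 CpG dinucleotides, against a median of 11. A match describes letters in the window and does not show that a factor binds there.

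Among the SPREDs, membrane-associated inhibitors that bring the RAS GTPase activator neurofibromin to RAS, neither gene was past 2-fold. SPRED1 read 49.95 in Zeo, 32.1 in RECK and 39.2 in the RECK/4NQ line by 226837_at, and its 2 other probe sets were below the floor on all arrays. RECK was again the lowest line, 1.55-fold below Zeo, but at this low level the difference is 0.73 spreads from the median of all genes. SPRED2 read 404 in Zeo, 306 in RECK and 389.6 in the RECK/4NQ line by 212458_at. Here RECK was 1.32-fold below Zeo, at 0.48 spreads. A dim second SPRED2 probe set, 212466_at, read 15.01, 19.9 and 13.6, with RECK highest, and the other was below the floor on all arrays.

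ETV4 gave like values by both of its probe sets. Its brightest, 1554576_a_at, had a signal of 711 in Zeo, 266 in RECK and 673 in the RECK/4NQ line. The second, 211603_s_at, read 419, 154 and 435. Both placed RECK well below the other lines, which lay close to each other. The relative log2 ratio for RECK over Zeo was -1.22 and -1.25 by these probe sets, the first at 3.04 spreads, and for RECK/4NQ over Zeo it was 0.043 and 0.18. Against RECK/4NQ, RECK was 2.53-fold and 2.82-fold lower. The 20 measured genes nearest to ETV4 had a median log2 ratio of -0.40 for RECK over Zeo, and ETV4 less that median was at -1.01.

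ETV5, the other PEA3-group factor here, differed less. Its brightest probe set, 203349_s_at, read 1179 in Zeo, 868 in RECK and 1518 in the RECK/4NQ line. Another pair, 203348_s_at at 234, 186 and 228 and 216375_s_at at 128, 101 and 139, also had their lowest value in RECK. By these 3, RECK was between 1.26-fold and 1.36-fold below Zeo. In contrast, 230102_at read 442, 453 and 515, and the dim 231083_at read 19.1, 37.2 and 39.5, with both transfected lines above mock. The latter was 2.07-fold higher in RECK/4NQ than in Zeo. RECK was 1.75-fold below RECK/4NQ by the brightest probe set, 2.08 spreads from the median, and no ETV5 difference was past 2-fold by that probe set.

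**Figure D2:**
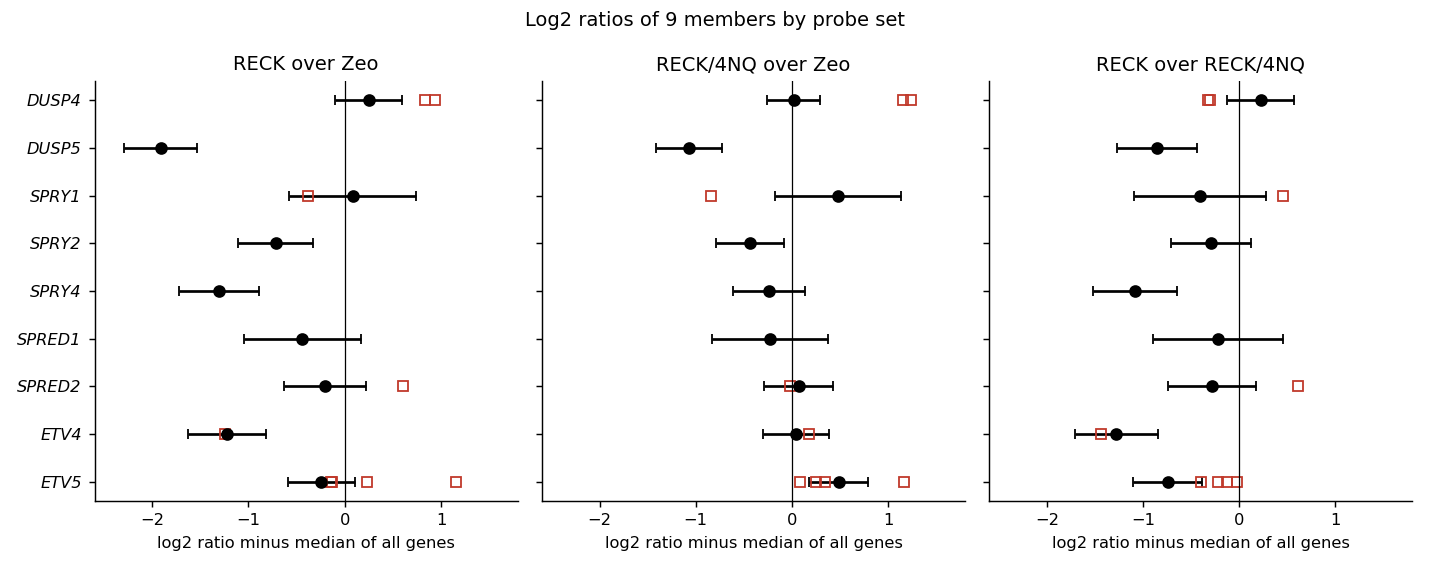
Log2 ratio minus the median of all genes for the 9 measured members in the 3 comparisons. Black points are the brightest probe set with bars of 1 robust spread of genes at the same level, and open red squares are other probe sets with at least 1 signal above the floor. DUSP5, SPRY4 and ETV4 lie below the median, by 5.01, 3.13 and 3.04 spreads, for RECK over Zeo, and the 2 dimmer DUSP4 probe sets lie apart from the brightest one.

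Over the 24 probe sets, 18 reached the floor on all 3 arrays, 1 on 1 or 2 arrays and 5 on none. For RECK over Zeo 4 of the 24 were at least 2-fold lower, those of DUSP5 and SPRY4 and both of ETV4, and 0 were higher, beside 6.32% and 3.64% of the 41091 probe sets with 1 symbol. For RECK/4NQ over Zeo 1 was lower, that of DUSP5, and 3 were higher, 2 of DUSP4 and 1 of ETV5, beside 6.48% and 2.95%. For RECK over RECK/4NQ 3 were lower, those of SPRY4 and ETV4, and 0 higher, beside 4.54% and 5.09%.

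Over the 9 measured members the median log2 ratio of RECK to Zeo was -0.64, where that of all measured genes was -0.19. For RECK/4NQ over Zeo it was -0.10, where all measured genes had -0.12. With DUSP6 included at the floor, the medians of all 10 were -0.54 and -0.092. For RECK over RECK/4NQ the 9 members had a median of -0.47 and all measured genes one of -0.063. As deposited and by the brightest probe set, RECK was the lowest of the 3 lines for 8 of the 9 members, all but DUSP4. The share of all measured genes was 45.3%. For SPRY1 RECK was above Zeo with arrays centred and after quantile normalisation, by 0.085 and 0.077 on the log2 scale. Other probe sets of SPRY1 (212558_at), SPRED2 (212466_at) and ETV5 (230102_at and 231083_at) did not have RECK lowest. Zeo was the highest line for 6 of the 9, and for 45.2% of all measured genes. These 6 genes, DUSP5, SPRY2, SPRY4, SPRED1, SPRED2 and ETV4, had the order Zeo, RECK/4NQ, RECK as deposited, though for SPRED1 and SPRED2 every step was under 1 spread. For ETV4 and SPRED2 the step from Zeo to RECK/4NQ was 0.13 and 0.19 spreads from the median of all genes and turned with the scaling. With arrays centred, RECK/4NQ was above Zeo by 0.18 and 0.20 on the log2 scale, where the median of all measured genes was 0.13. After quantile normalisation ETV4 was at -0.023 and SPRED2 at 0.0025. The second ETV4 probe set also had RECK/4NQ highest.

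**Figure D3:**
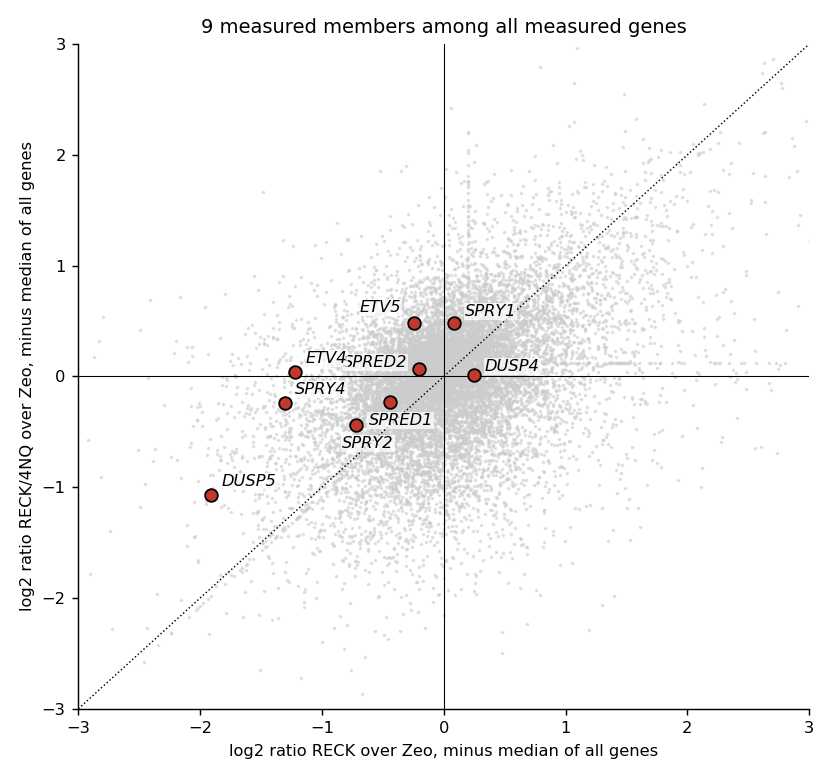
Log2 ratio of RECK over Zeo against that of RECK/4NQ over Zeo, each minus the median of all genes, for the 9 measured members (red) and all other measured genes within the axes (grey). The dotted diagonal marks equal ratios, 43 genes lie outside the axes, and both axes share the Zeo array. DUSP5 is low on both axes at -1.91 and -1.07, while ETV4 and SPRY4 are low on the horizontal axis at -1.22 and -1.31 and near 0 on the vertical one.

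The rest of the pathway was described from lists chosen with earlier results of these data known. Of 14 components of the RAS-ERK cascade itself with a probe set (such as HRAS, MAP2K1, MAP2K2 and MAPK3), none was past 2-fold in any of the 3 comparisons. Their log2 ratios for RECK over Zeo lay between -0.56 and 0.61, with a median of -0.20. Of 17 further transcripts known to rise with ERK activity, such as PHLDA1, IER3 and FOSL1, none was past 2-fold in any comparison either. For RECK over Zeo the 16 of these that were measured lay between -0.69 and 0.29, with a median of -0.26 where all genes had -0.19. Of all genes, 6.7% were lower and 4.03% higher for RECK over Zeo, and 7.13% and 2.81% for RECK/4NQ over Zeo. For RECK over RECK/4NQ the shares were 4.47% and 5.76%. Beside such shares, the absence of calls in lists of 14 and 17 genes does not set them apart from all genes.

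Of 12 other MAP kinase phosphatases and Sprouty relatives, 2 were lower in RECK than in Zeo, 1 was higher and 9 were not past 2-fold, and for RECK/4NQ 5 were lower, 1 higher and 6 not past 2-fold. Of all genes, 6.7% were lower and 4.03% higher in the first comparison and 7.13% and 2.81% in the second. Over the 11 that were measured, the median log2 ratio was 0.095 for RECK over Zeo and -0.70 for RECK/4NQ over Zeo. All measured genes had -0.19 and -0.12. For RECK over RECK/4NQ the list median was 0.44, beside -0.063. The 6 named here, those past 2-fold, were dim, at 84.1 or below on every array and probe set. DUSP9, a cytoplasmic ERK phosphatase, read 49.8 in Zeo, 13.2 in RECK and 22.5 in the RECK/4NQ line. SPRY3 read 55.0, 22.7 and 16.7. IL17RD, known as a membrane antagonist of FGF signalling, read 38.5, 43.6 and 10.7, which makes RECK/4NQ at least 3.14-fold lower than Zeo. DUSP8 read 60.9, 69.4 and 28.2, its other probe set 32.4, 84.1 and 21.8, and DUSP2, a nuclear phosphatase, 81.3, 42.0 and 33.9. DUSP16 read 3.56 in Zeo, below the floor, and 41.0 and 42.4 in the transfected lines, at least 3.35-fold and 3.46-fold higher, while its other probe sets were below the floor in Zeo and RECK. In contrast to ETV4 and SPRY4, the RECK/4NQ line was the lowest for SPRY3, IL17RD, DUSP8 and DUSP2.

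Of 10 other ETS factors none was past 2-fold for RECK over Zeo and 1 was lower for RECK/4NQ over Zeo. That was ELK3, a partner of serum response factor, at 276 in Zeo, 169 in RECK and 134 in the RECK/4NQ line. ETV1, the remaining PEA3-group factor, read 32.2, 20.8 and 55.7 by its brightest probe set, with RECK 2.68-fold below RECK/4NQ. Its other probe sets included readings of 35.4, 8.08 and 41.6 with RECK lowest and, below and near the floor, 13.2, 15.0 and 0.981 with RECK/4NQ lowest. Of 14 receptors that feed the cascade, 3 were lower in RECK than in Zeo and 1 was higher, and for RECK/4NQ 1 was lower and 0 higher, beside the same shares of all genes (6.7% and 4.03%, then 7.13% and 2.81%). FGFR3, a fibroblast growth factor receptor, read 115 in Zeo, 49.6 in RECK and 35.6 in the RECK/4NQ line, but its other probe set read 17.5, 18.9 and 37.8. FGFR2 read 35.4, 17.2 and 37.6, ERBB3 53.4, 24.9 and 33.0, and PDGFRB 22.9, 67.3 and 12.2. For FGFR2 and ERBB3, other probe sets above the floor on some arrays did not all place the lines in that order.

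**Figure D4:**
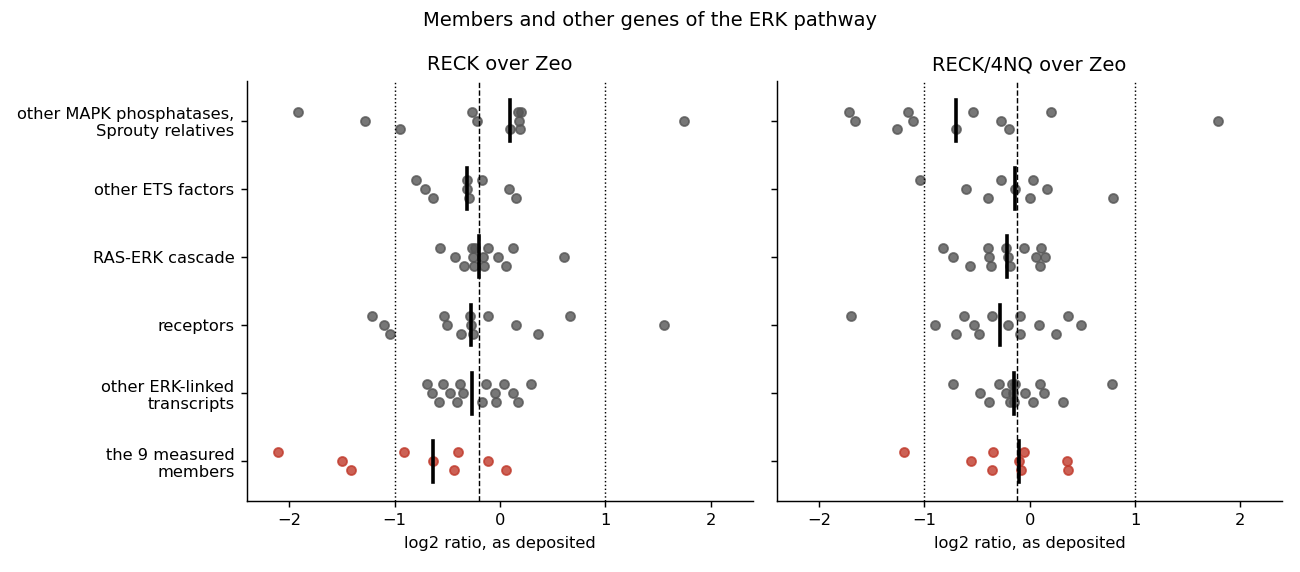
Log2 ratios as deposited for measured genes of 5 pathway lists (grey) and for the 9 measured members (red), RECK over Zeo on the left and RECK/4NQ over Zeo on the right. Each point is a gene by its brightest probe set, thick bars are list medians, the dashed line is the median of all measured genes and dotted lines mark 2-fold. The member median is -0.64 on the left and -0.10 on the right. No gene of the cascade list is past 2-fold, beside 6.7% of all genes lower and 4.03% higher on the left. On the right these shares are 7.13% and 2.81%.

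The genes whose pattern lay nearest to that of DUSP5, the member with the largest ratio, were sought among 9454 genes at or above a signal of 27.8 on all arrays. Likeness was the Euclidean distance between the log2 ratios of RECK over Zeo and RECK/4NQ over Zeo, so it rests on 3 arrays. The nearest 5 were TMEM132D-AS1 at a distance of 0.070, LOC101928343 at 0.091, LINC01694 at 0.18, LAMA5 at 0.19 and ITGA6 at 0.24. TMEM132D-AS1, an antisense RNA, read 2889 in Zeo, 653 in RECK and 1215 in the RECK/4NQ line. LAMA5, a laminin chain, read 407, 105 and 191, and ITGA6, a laminin-binding integrin chain, 357, 93.8 and 175.

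**Figure D5:**
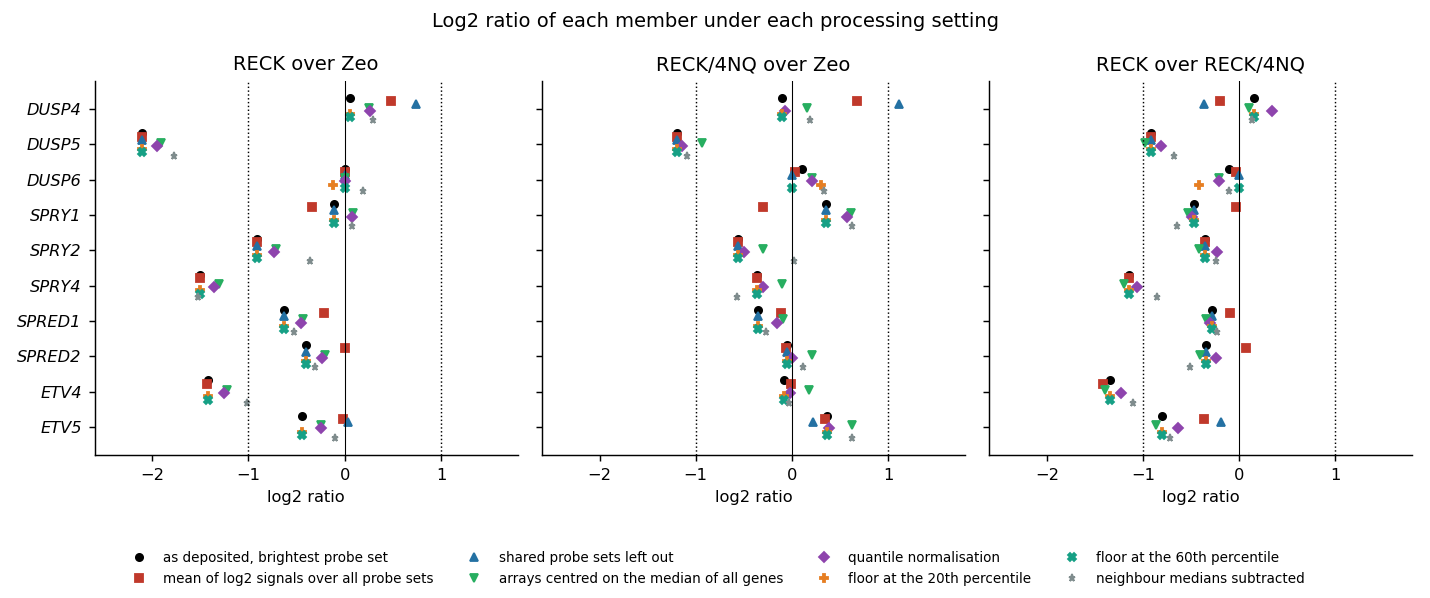
Log2 ratio of each of the 10 members under each processing setting in the 3 comparisons, with dotted lines at 2-fold. Each symbol is 1 setting, and SPRY4 and ETV4 have no value with shared probe sets left out. DUSP5 stays below -1 for RECK over Zeo in every setting shown, while DUSP4 runs from 0.053 to 0.74.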

How the data were processed

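Total RNA of 3 HT1080 lines was measured on 1 Affymetrix array each. The authors deposited MAS5 signals, intensities on a linear scale, with MAS5 named in the submitters' processing notes; its version, its scaling target and the genome build were not given in the sources used here. Signals were used as deposited (medians of 20.3, 17.9 and 17.3 for Zeo, RECK and RECK/4NQ), and the number of arrays limits the precision. MAS5 subtracts a mismatch estimate, so weak signals are noisy.

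Of 54675 probe sets, 62 controls were left out, 41091 had 1 symbol, 1801 had several and 11721 were not listed with a gene, in an annotation that can be old. All 10 members matched the GRCh38 RefSeq gene table by gene ID and symbol. Floor, brightest probe set, 2-fold rule and spread (1.4826 times the median absolute deviation) are described in the report; calculations used Python 3.11.15, pandas 2.3.3 and numpy 2.4.6 and were tested on simulated data. The neighbours of a gene were the 10 nearest measured genes on each side.

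All 10 members were named, with listed pathway genes past 2-fold (up to 6 per list, by size) and the 5 genes nearest to the member with the largest ratio. Members and lists were chosen with earlier results of these data known. Some listed genes are not analysed here. Alternatives changed the probe set summary, the scaling, the floor, the neighbours and the fold.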

Additional observations from a re-analysis of the deposited data

How the results depend on the processing

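With 1 array per line, no alternative could leave out a replicate. No paired analysis was possible because each line has 1 array. For RECK over Zeo, DUSP5, SPRY4 and ETV4 were the 3 lower members under every alternative run at 2-fold but 1. With shared probe sets left out, 1 member (DUSP5) was lower, beside 6.9% of the 16788 genes left, and SPRY4 and ETV4 had no value. Shared here means the _s_at, _x_at and _a_at classes, which can match more than 1 transcript, not always of different genes. At 1.5-fold 5 were lower, beside 18.4% of all genes (6.7% at 2-fold). The median of the 10 members, -0.54, was -0.28 with probe sets averaged, -0.34 with arrays centred and -0.35 after quantile normalisation. That of all measured genes, -0.19 as deposited, was -0.043, 0 and -0.029 in these settings. Averaged signals were floored first, so dim genes also count there. Without shared probe sets the median of the 8 members with a value was -0.26, beside -0.20 for all measured genes. With neighbour medians subtracted, which was done for the members only, the median of the 10 was -0.33. For RECK/4NQ over Zeo, centring left 0 members lower (DUSP5 at -0.94), beside 4.12% of all genes. Leaving out shared probe sets made 1 member, DUSP4, higher, beside 2.91% of the genes left. The median of -0.092 was 0.16 with centring, which took that of all measured genes from -0.12 to 0.13, and 0.066 with neighbour medians subtracted. For RECK over RECK/4NQ, 0 members were lower without shared probe sets (4.71% of the genes left) and 4 at 1.5-fold (13.3% of all genes). With neighbour medians subtracted 1 (ETV4) was lower, and that setting has no share of all genes. For RECK over RECK/4NQ the median of the 10 is given next. Its median of -0.41 was -0.28 with probe sets averaged, where that of all measured genes went from -0.063 to 0. With neighbour medians subtracted from the members it was -0.58. Of 204 single-member values under alternatives, 189 lay within 1 spread of the reported value and 15 did not, and no member past 2-fold as reported changed sign in that comparison. The causes were not tested, apart from members without an unshared probe set. Among all genes called for RECK over Zeo, 37.5% were higher as deposited, 55.1% with centring and 53.7% after quantile normalisation; for RECK/4NQ over Zeo the shares were 28.3%, 53.4% and 46%. Signal over the floor limits DUSP6, SPRY1 and SPRED1, whose brightest probe sets were at or below 49.95 on every array.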
